A study of Mus musculus with 57 samples.

Results

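The neuromuscular junction genes described here are 10 genes taken by name from the count tables: 5 subunits of the muscle acetylcholine receptor (*Chrna1*, *Chrnb1*, *Chrnd*, *Chrng* and *Chrne*), the scaffold protein *Rapsn*, and the agrin signalling genes *Musk*, *Dok7*, *Lrp4* and *Agrn*. All 10 were found among the 56860 genes listed. Their transcripts were measured by RNA-seq of polyA-selected RNA in 57 libraries from mouse embryos of the 129/Sv strain, either wild-type (wt) or homozygous for a *Hoxa5* null allele (*Hoxa5*-/-), in which a neomycin cassette interrupts the homeobox in all cells. The contexts, named by embryonic day (E), were lung at E12.5 and E15.5, trachea at E15.5 and diaphragm at E15.5. A further 3 contexts were brown fat from between the shoulder blades (iBAT) at E18.5 and somites of the cervical and upper thoracic levels at E10.5 and at E12.5. Each group held 4 libraries, apart from *Hoxa5*-/- somites at E10.5 with 3 and iBAT with 5 per genotype. The 32 libraries of lung, trachea and diaphragm were sequenced at another centre and with another read length than the 25 of somites and iBAT, so that levels were tested only within each set. Libraries held between 18369905 and 72991481 counted reads, and levels are given as TPM, a transcript abundance scaled for gene length and for the total of the library.

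The neuromuscular junction is the synapse at which a motor axon releases acetylcholine onto a skeletal muscle fibre. Agrin, secreted by the nerve, binds LRP4 and activates the receptor kinase MUSK, which with the adaptor DOK7 leads rapsyn to cluster the acetylcholine receptors beneath the nerve terminal. The fetal receptor is built from α1, β1, δ and γ subunits, and the ε subunit, encoded by *Chrne*, replaces γ after birth. Muscle fibres of the diaphragm begin to concentrate receptors at mid-gestation, partly before the nerve arrives.

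In the annotation used for counting (GRCm39), *Chrnd* lies on chromosome 1 from 87118329 to 87127792 and *Chrng* follows it on the same strand from 87132379 to 87140416, with 4586 bases between them. *Chrna1* (ENSMUSG00000027107.4) is on chromosome 2 from 73393559 to 73410682, *Chrnb1* on chromosome 11 from 69674862 to 69686769 and *Chrne* on chromosome 11 from 70505709 to 70510042. *Rapsn* occupies 90865965 to 90876074 of chromosome 2, and *Lrp4* begins 411781 bases further on. *Musk* is on chromosome 4 from 58285960 to 58374303, *Agrn* on chromosome 4 from 156249747 to 156281945 and *Dok7* on chromosome 5 from 35214110 to 35245183. Reads were counted per gene over all exons, so that the neural and muscle splice forms of agrin were not separated. Of the 10 genes, *Rapsn* was the one whose exons overlap those of another gene, by 4 bases with the antisense transcript *Gm13778*.

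Promoters of 4 members are shown: the fetal and the adult receptor subunit, whose levels are compared within each library, and *Chrna1* and *Musk*, whose levels were higher in all *Hoxa5*-/- than in all wt diaphragm libraries. Like these, *Dok7* was higher in all mutant libraries, but its windows held neither hexamer searched. Each window runs from 250 bases before to 50 bases after a RefSeq transcript start and was taken from a table of assembly GRCm38.p6, then matched exactly to GRCm39. The RefSeq start of *Chrng* lies inside the gene as annotated for counting. Capitals mark CAGCTG, a hexamer of the E-box type bound by myogenic factors such as MYOD and myogenin, and CCGGAA, the core of the N-box that ETS factors such as GABP bind in synaptic nuclei. Both hexamers were searched on both strands.
Chrna1, chr2:73410633-73410932, minus strand: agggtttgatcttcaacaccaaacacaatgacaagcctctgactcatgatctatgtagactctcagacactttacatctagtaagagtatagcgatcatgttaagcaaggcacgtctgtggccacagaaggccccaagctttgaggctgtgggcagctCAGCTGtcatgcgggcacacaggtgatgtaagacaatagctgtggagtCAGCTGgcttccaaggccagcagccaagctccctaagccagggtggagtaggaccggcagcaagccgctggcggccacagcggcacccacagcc
Chrng, chr1:87133283-87133582, plus strand: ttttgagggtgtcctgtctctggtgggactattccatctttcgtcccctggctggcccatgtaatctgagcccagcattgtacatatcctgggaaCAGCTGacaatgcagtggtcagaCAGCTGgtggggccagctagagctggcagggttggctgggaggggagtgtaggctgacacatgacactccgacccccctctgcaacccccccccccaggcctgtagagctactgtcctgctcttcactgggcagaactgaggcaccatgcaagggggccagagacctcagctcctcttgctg
Chrne, chr11:70509971-70510270, minus strand: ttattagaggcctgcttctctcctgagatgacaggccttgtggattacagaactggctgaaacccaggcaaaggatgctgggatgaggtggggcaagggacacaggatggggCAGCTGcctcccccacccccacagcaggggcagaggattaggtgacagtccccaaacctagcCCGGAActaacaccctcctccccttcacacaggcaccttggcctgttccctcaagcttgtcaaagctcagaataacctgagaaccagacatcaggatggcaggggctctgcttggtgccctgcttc
Musk, chr4:58285712-58286011, plus strand: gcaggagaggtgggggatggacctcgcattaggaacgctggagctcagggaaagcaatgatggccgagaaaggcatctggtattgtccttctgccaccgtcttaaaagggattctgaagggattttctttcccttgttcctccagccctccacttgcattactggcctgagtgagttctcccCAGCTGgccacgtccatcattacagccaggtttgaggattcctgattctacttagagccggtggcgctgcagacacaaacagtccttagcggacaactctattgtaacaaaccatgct

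*Chrna1* held 2 copies of CAGCTG, at -92 and -44 from the start, and *Chrng* held 2, at -155 and -132. *Chrne* held 1 copy of CAGCTG at -138 and 1 of CCGGAA at -76, and *Musk* held 1 CAGCTG at -68. CAGCTG was present in 16.3% and CCGGAA in 14.9% of the 32851 promoters of the table. Of the 7 members with an entry, *Chrnb1*, *Dok7* and *Agrn* had neither hexamer in their windows. A match is a description of letters and not a measured binding site.

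*Hoxa5* transcripts, which the allele interrupts but does not remove, were lower in the mutants of all 7 contexts and passed the test in each, with log2 fold changes from -0.92 in somites at E10.5 to -1.94 in lung at E12.5 and in iBAT, and no ranges overlapped. A few libraries stood apart from their groups. In trachea, *Hoxa5*-/- replicate 3 held a summed level of 5641 TPM for the 20 genes of the skeletal muscle fibre list, while the other 7 trachea libraries held between 235 and 1808 TPM. Its most abundant gene of that list was *Acta1*, skeletal α-actin, at 1805 TPM, and its *Col2a1*, a cartilage collagen, reached 2504 TPM against 468 to 959 TPM in the other trachea libraries. Among diaphragm libraries, wt replicate 3 carried lung transcripts, with *Sftpc*, surfactant protein C, at 322 TPM and *Nkx2-1* at 57.1 TPM, and *Hoxa5*-/- replicate 3 carried cartilage transcripts, with *Col2a1* at 242 TPM. Liver transcripts were also abundant, and *Alb*, albumin, was at 902, 836, 4566 and 1051 TPM in wt replicates 1 to 4 and at 1124, 184, 5371 and 4940 TPM in *Hoxa5*-/- replicates 1 to 4. Muscle was present in all 8 diaphragm libraries, since the skeletal muscle fibre list summed to between 19542 and 49855 TPM. Genotype results in diaphragm and trachea whose call changed without these libraries are given with and without them.

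Most members were highest in the diaphragm. In wt diaphragm, *Chrng* had the highest mean, 185 ± 16.3 TPM (SD, n = 4), followed by *Chrnb1* at 176 ± 22.9, *Agrn* at 137 ± 17.3, *Rapsn* at 119 ± 7.75 and *Chrnd* at 112 ± 14.3 TPM. *Chrna1* stood at 74.4 ± 9.11 TPM, *Dok7* at 37.9 ± 3.87, *Lrp4* at 34.1 ± 1.82 and *Musk* at 15.1 ± 1.68 TPM. *Chrne* was lowest, at 1.30 ± 0.6003 TPM. *Chrna1*, *Chrnb1*, *Chrnd*, *Chrng*, *Musk*, *Dok7* and *Rapsn* were all highest in diaphragm and next in somites at E12.5, and the ranges of these 2 groups did not overlap for any of them. Their means in somites at E12.5 were lower by between 1.65-fold for *Musk* and 8.11-fold for *Chrnd*, but the 2 contexts come from different centres, and no test was made between them.

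*Agrn* and *Lrp4* followed another order. *Agrn* was highest in wt lung at E15.5 (314 ± 22.9 TPM, n = 4), trachea (287 ± 20.7 TPM) and lung at E12.5 (267 ± 21.7 TPM), 3 groups whose neighbouring ranges overlapped. It was lower in somites at E12.5 (199 ± 18.1 TPM), somites at E10.5 (150 ± 21.2 TPM) and diaphragm, and lowest in iBAT at 49.5 ± 6.95 TPM (n = 5). *Lrp4* was also highest in lung at E15.5 (47.3 ± 10.53 TPM) and stood between 21.3 and 34.1 TPM in the other contexts except iBAT, where its mean was 0.841 ± 0.288 TPM. Agrin is also a basement membrane proteoglycan, and *Lrp4* acts in epithelia beside its role in muscle. Of the summed TPM of the 10 members, *Agrn* made up a mean of 79.5% in wt lung at E15.5, 47.2% in somites at E12.5 and 15.46% in diaphragm.

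**Figure D1:**
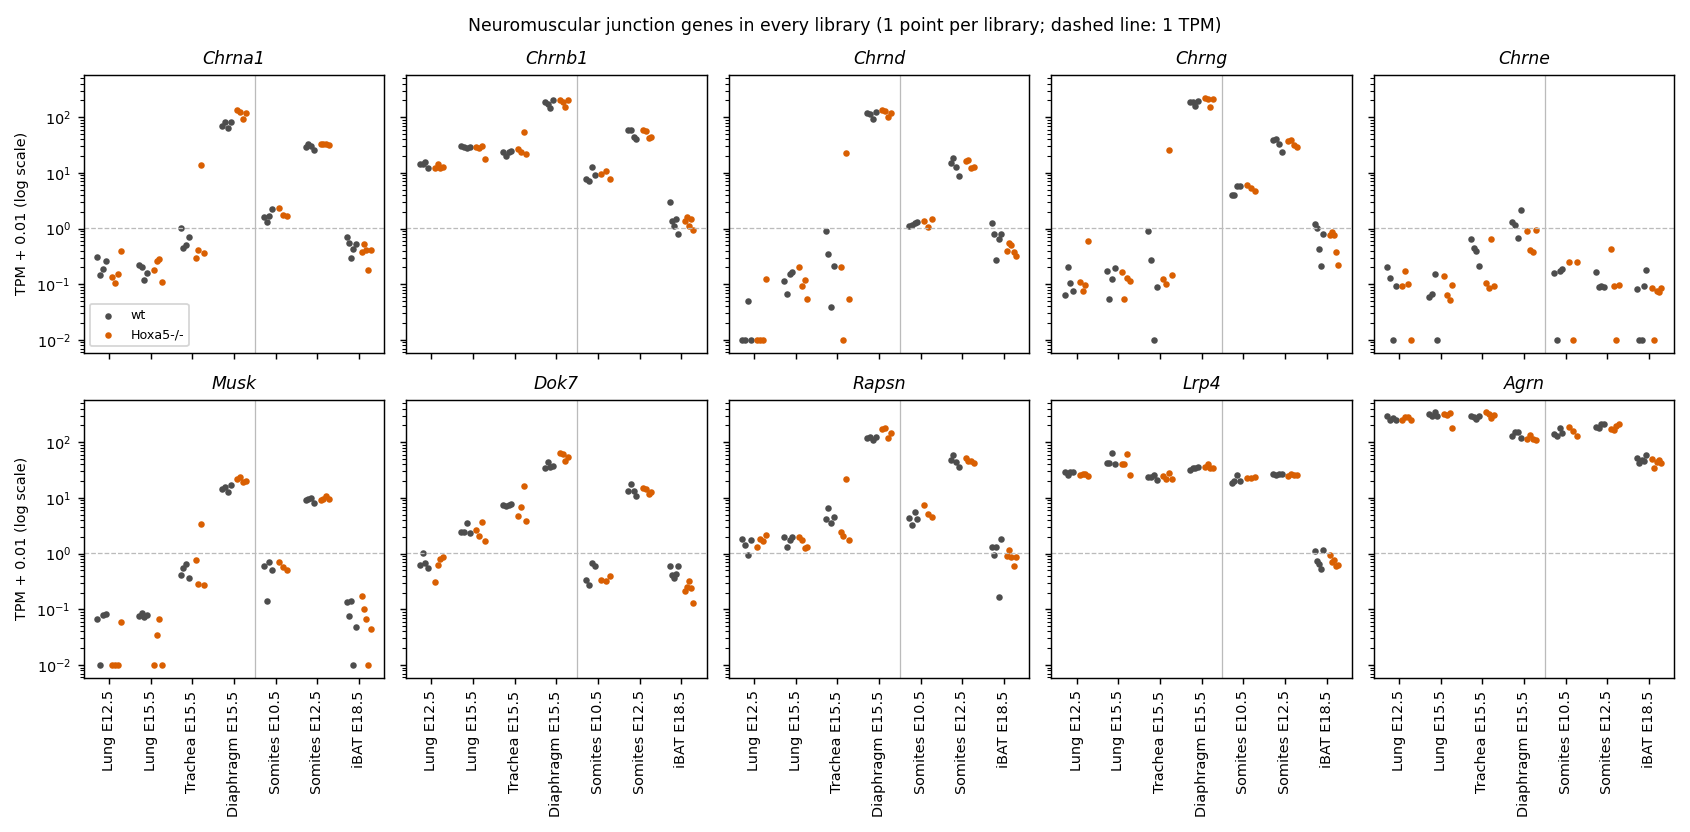
TPM plus 0.01 on a log scale of the 10 genes in the 57 libraries, 1 point per library, wt in grey and *Hoxa5*-/- in orange, with a vertical line between the libraries of the 2 centres and a dashed line at 1 TPM. *Chrna1*, *Chrnd*, *Chrng*, *Musk* and *Rapsn* stood highest in diaphragm and somites at E12.5, *Agrn* exceeded 34 TPM in every library, and 1 trachea library of the mutants (replicate 3) lay far above the others.

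Within the wt libraries of the respiratory set, diaphragm was compared with lung at the same stage. Passing the test meant a fold change of 1.5 or more together with an adjusted p below 0.05 from edgeR's quasi-likelihood test. All 10 members were tested, 8 were higher and 1 lower in diaphragm, and 36.4% of all 18984 genes tested passed in either direction. The γ, δ and α1 receptor subunits rose most, by 10.80 ± 0.21 (log2 fold change ± SE) for *Chrng* (adjusted p = 4.03e-09), 10.24 ± 0.22 for *Chrnd* and 9.05 ± 0.17 for *Chrna1*. These folds rest on few reads in lung, where wt libraries held 2 to 8 reads of *Chrng*, 2 to 4 of *Chrnd*, 4 to 11 of *Chrna1* and 2 to 3 of *Musk*. *Chrng*, *Chrnd*, *Chrna1*, *Musk* and *Chrne* were under 1 TPM in wt lung and were tested only through their levels in diaphragm, so that the direction of these 5 was fixed by the expression minimum. *Musk* rose by 8.01 ± 0.18, *Rapsn* by 6.39 ± 0.14, *Chrne* by 4.55 ± 0.60, *Dok7* by 4.11 ± 0.15 and *Chrnb1* by 2.92 ± 0.12. Of the 5 receptor genes, the β1 subunit had the highest level in wt lung at E15.5, at 28.9 ± 1.10 TPM. *Agrn* fell by 0.90 ± 0.09 on the log2 scale (adjusted p = 2.19e-05), and *Lrp4* had a log2 fold change of -0.16 ± 0.14 (adjusted p = 0.336). In such bulk samples, fewer muscle cells and less RNA per cell cannot be told apart. The median log2 fold change of the members was 5.47, beside -0.01 over all genes tested and 9.54 over the 20 skeletal muscle fibre genes. It is a description, and it includes the 5 members whose direction the expression minimum fixed.

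Against wt trachea, 9 of the 10 members were higher and *Agrn* was lower in diaphragm, where 32.5% of all genes passed. The same 5 members were under 1 TPM in wt trachea too, with their direction fixed in the same way. Without wt diaphragm replicate 3, the library with lung transcripts, 9 members again passed against lung and 10 against trachea. *Chrng* was 9.66 ± 0.55 and *Chrna1* 7.15 ± 0.23 higher on the log2 scale, and *Lrp4* 0.84 ± 0.08 higher. Between trachea and lung at E15.5, where 5 members reached the expression minimum and 30.2% of genes passed, *Dok7* (1.44 ± 0.16, adjusted p = 9.9e-05) and *Rapsn* (1.37 ± 0.25, adjusted p = 0.00179) were higher and *Lrp4* lower (-1.05 ± 0.14) in trachea. *Dok7* in wt trachea was at 7.55, 7.29, 7.60 and 7.69 TPM, against 2.30 to 3.60 TPM in wt lung. From E12.5 to E15.5, wt lung gained *Dok7* (1.86 ± 0.24), *Chrnb1* (0.99 ± 0.09) and *Lrp4* (0.71 ± 0.13), 3 of the 5 members tested, with 24.6% of genes passing. *Dok7* was under 1 TPM at E12.5, so that the expression minimum fixed its direction. The call for *Lrp4* rested on wt replicate 3 at E15.5, without which it was 0.54. *Agrn* and *Rapsn*, both at 0.20 on the log2 scale, stayed under the fold limit there.

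Somites between E10.5 and E12.5 showed a rise of the members that were highest in muscle. In wt libraries 7 of the 9 members tested rose and none fell, where 42.6% of all genes passed. *Dok7* and *Musk* were under 1 TPM at E10.5 and could enter only through the later stage, which fixed their direction. *Dok7* stood at 0.324, 0.265, 0.668 and 0.587 TPM in the E10.5 libraries and at 13.5, 17.9, 13 and 11 TPM at E12.5, a log2 fold change of 4.86 ± 0.24 (adjusted p = 1.32e-09). *Chrna1* went from 1.61, 1.32, 1.64 and 2.19 TPM to 29.1, 32.7, 30.2 and 25.5 TPM (4.06 ± 0.15). No library of the earlier stage reached the level of a later one in either gene. *Musk* rose by 4.18 ± 0.27, *Chrnd* by 3.45 ± 0.22, *Rapsn* by 3.37 ± 0.18, *Chrng* by 2.76 ± 0.17 and *Chrnb1* by 2.42 ± 0.17. Of the α1, γ and δ subunits, *Chrng* was the most abundant at E10.5, with 4.83 ± 1.006 TPM against 1.69 ± 0.363 TPM for *Chrna1* and 1.20 ± 0.0880 TPM for *Chrnd*. *Agrn* (0.34 ± 0.10) and *Lrp4* (0.25 ± 0.08) did not reach the fold limit. The median of the members, 3.37, lay beside 3.13 over the 19 skeletal muscle fibre genes tested and -0.04 over all genes.

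Other genes of the postsynaptic apparatus moved in the same interval. Of 32 genes of the scaffold, the basal lamina and synaptic signalling, 18 rose and 1 fell in wt somites, with a median of 0.75, where 42.6% of all genes passed. *Colq*, the collagen tail that anchors acetylcholinesterase, rose by 4.33 ± 0.24, *Ache*, the esterase itself, by 1.82 ± 0.18, and *Cav3*, a muscle caveolin, by 5.96 ± 0.31. The neuronal nicotinic subunits went the other way, and all 6 of the 11 that were tested fell, among them *Chrna3* (-3.70 ± 0.17) and *Chrnb4* (-3.91 ± 0.19), which form ganglionic receptors. For any subunit with a mean under 1 TPM at E12.5, the expression minimum fixed the direction of its fall. Markers of nerve cells moved with them, since 10 of 15 motor nerve and neuron genes fell and 1 rose, and their sum went from 1519 ± 330 TPM at E10.5 to 688 ± 288 TPM at E12.5 (n = 4 each). *Tubb3* was the most abundant of them at both stages, and the sum of the Schwann cell list went from 379.9 ± 68.1 to 257 ± 50.7 TPM. The part of nerve tissue in the samples was not tested. Brown fat at E18.5 lay at the other end. Between wt somites at E12.5 and wt iBAT, all 9 members tested were lower in iBAT, from -0.81 ± 0.08 for *Agrn* to -5.67 ± 0.30 for *Musk*, in a comparison in which 66.3% of all genes passed and the median of all genes was -0.16. Of these 9, *Chrna1*, *Chrnd*, *Chrng*, *Musk*, *Dok7* and *Lrp4* were under 1 TPM in wt iBAT and were tested only through their levels in somites, so that their direction was fixed by the expression minimum. *Chrna1* was at 0.485 ± 0.148 TPM in wt iBAT (n = 5), although the skeletal muscle fibre list still summed to between 720 and 3048 TPM there.

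**Figure D2:**
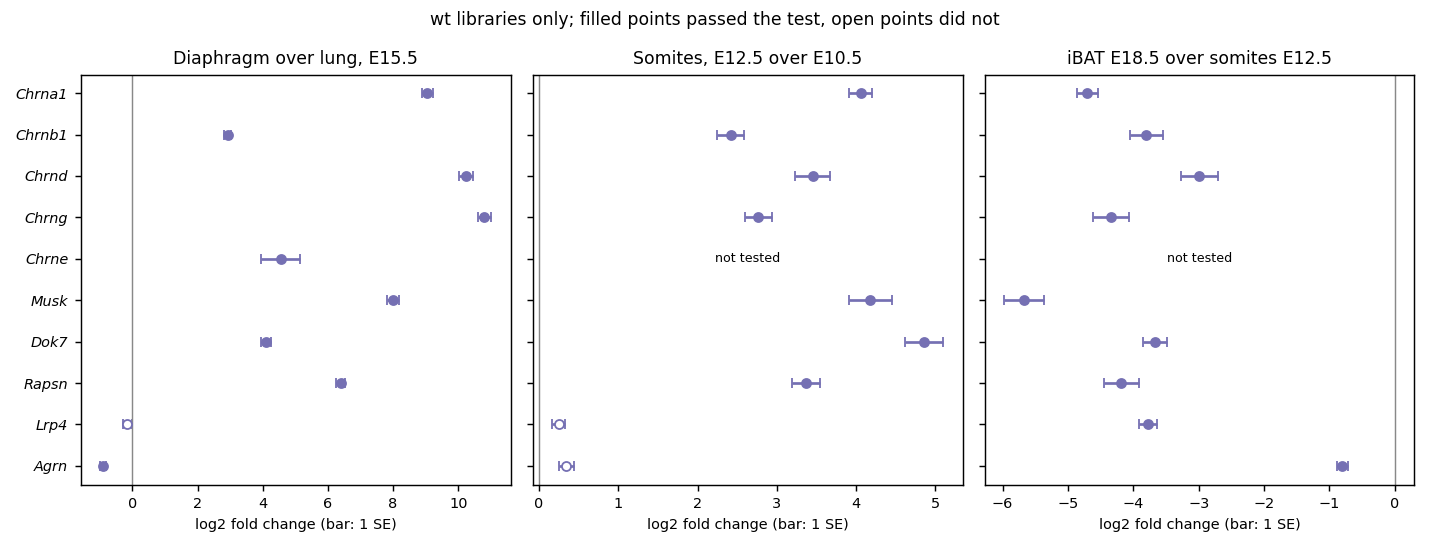
Log2 fold changes of the members with 1 SE in 3 comparisons of wt libraries by edgeR, with filled points for genes that passed the test and open points for those that did not. Apart from *Agrn* and *Lrp4*, the members tested lay to the right, at 2.92 or more in diaphragm and 2.42 or more in somites at E12.5, *Agrn* and *Lrp4* lay within 1 of 0 in those comparisons, and all 9 tested members to the left in iBAT.

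Genes with the most similar pattern were ranked by Pearson's correlation of log2(TPM + 1) over the 57 libraries, among 23490 genes. These libraries share tissues and depth differences, so the values are descriptions. *Chrna1* was most like *Arpp21* (r = 0.9938), *Musk* (0.9927) and *Mymx* (0.9911), the last a micropeptide of myoblast fusion. *Chrng* was most like *Gjd4* (0.9980), *Lincmd1* (0.9931) and *Cacna1s* (0.9928), the muscle calcium channel subunit. *Agrn* was most like *Pcgf2* (0.9844), *B4galt3* and *Maml2*, and its correlation with *Chrna1* was -0.0765. *Chrne*, which was under 1 TPM in most libraries, had no correlation above 0.9064, with *6330410L21Rik*, *Carns1* and *Gm17552* as its nearest genes.

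The genotype comparison in diaphragm asked whether loss of *Hoxa5* changes the synaptic genes of this muscle, on which the breathing of the newborn depends. The targeted gene itself was at 60.1 to 94.7 TPM in wt and 15.3 to 26.6 TPM in *Hoxa5*-/- diaphragm, a log2 fold change of -1.84 ± 0.21 (adjusted p = 0.00853). None of the 10 members passed edgeR's test, where 0.594% of 18019 genes did and 2348 had an unadjusted p under 0.05. Their median log2 fold change was 0.09, beside 0.00 over all genes, and 8 of the 10 estimates were above 0. The estimates were between 0.37 and 0.66 for *Chrna1*, *Dok7*, *Musk* and *Rapsn*, between 0.06 and 0.09 for *Chrnb1*, *Chrnd*, *Chrng* and *Lrp4*, and below 0 for *Agrn* and *Chrne*, a grouping made after the values were seen. *Chrne* was under a mean of 1 TPM in mutants and was tested only through wt, so that the expression minimum fixed its direction. All mutant libraries lay above all wt libraries for 3 of the 10 members, and for 2.25% of the 18019 genes tested.

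*Chrna1*, the α1 subunit that binds acetylcholine, was at 70.3, 81.9, 63.5 and 81.9 TPM in wt replicates 1 to 4 and at 136, 125, 93.9 and 117 TPM in *Hoxa5*-/- replicates. All mutant libraries lay above all wt libraries, as for 2.25% of the 18019 genes tested (405 genes; for 4.62% all lay below), and the log2 fold change was 0.66 ± 0.12 (adjusted p = 0.0631 by edgeR). DESeq2 on the same genes gave 0.66 ± 0.13 with an adjusted p of 0.000108, which passes, in a test that called 2.25% of the genes. *Chrna1* also passed edgeR's test when the expression minimum was replaced by 10 counts (adjusted p = 0.0464, with 0.514% of genes called) and without *Hoxa5*-/- replicate 3 (0.76 ± 0.10, adjusted p = 0.0376, with 0.289% called). Without both libraries numbered 3 it was 0.67 ± 0.07 (adjusted p = 0.00944, with 0.561% called). Of the 8 fits that each left out 1 library, 1 called *Chrna1* (adjusted p up to 0.201 by edgeR). It did not pass in edgeR with the size factors of DESeq2 (adjusted p = 0.0672) or scaled to the skeletal muscle list (adjusted p = 0.359). Nor did it pass in a single edgeR fit of all respiratory libraries (0.67 ± 0.53, adjusted p = 0.666). That fit takes the spread over the lung and trachea libraries too.

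*Dok7*, the adaptor that activates MUSK from inside the cell, was at 35.1, 43.4, 35.2 and 38.0 TPM in wt and 64.6, 62.4, 45.5 and 53.5 TPM in mutants. All mutant libraries lay above all wt libraries, again as for 2.25% of the genes tested. The log2 fold change of 0.57 ± 0.11 (adjusted p = 0.0641 by edgeR) lay just under the fold limit. DESeq2 gave 0.57 ± 0.12 with an adjusted p of 0.000253, so that the fold limit alone kept it from passing. In edgeR *Dok7* passed with 10 counts as the minimum (0.59, adjusted p = 0.0476), without *Hoxa5*-/- replicate 3 (0.66, adjusted p = 0.0268) and without both libraries numbered 3 (0.61, adjusted p = 0.0228). Of the 8 fits that each left out 1 library, 1 called *Dok7* (adjusted p up to 0.203 by edgeR). In edgeR it did not pass scaled to the skeletal muscle list (0.73 ± 0.26, adjusted p = 0.797). It also did not pass in the single fit of all respiratory libraries (0.58 ± 0.27, adjusted p = 0.379). *Musk*, the kinase, was at 14.6, 16, 12.9 and 16.8 TPM in wt and 21.6, 23.4, 19 and 20.3 TPM in mutants, again without overlap (0.47 ± 0.10, adjusted p = 0.0901 by edgeR). DESeq2 gave *Musk* 0.47 ± 0.11 with an adjusted p of 0.00221, under the fold limit. *Rapsn*, which links the receptors to the cytoskeleton, was at 117, 127, 109.2 and 124 TPM in wt and 171, 181, 119 and 149 TPM in mutants. Here *Hoxa5*-/- replicate 3 fell among the wt libraries (0.37 ± 0.12, adjusted p = 0.228 by edgeR and 0.0813 by DESeq2). Without both libraries numbered 3, *Rapsn* had 0.43 ± 0.06 (adjusted p = 0.0373 by edgeR), under the fold limit, and *Musk* 0.44 ± 0.08 (adjusted p = 0.0808).

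The estimates of *Chrng*, *Chrnd*, *Chrnb1* and *Lrp4* were near 0, and *Chrne* is described with *Chrng* further on. *Chrng* was at 190, 191, 160 and 197 TPM in wt and 218, 208, 149 and 211 TPM in mutants (0.08 ± 0.13, adjusted p = 0.825 by edgeR). *Chrnd* and *Chrnb1* had log2 fold changes of 0.09 ± 0.12 and 0.06 ± 0.13, and *Lrp4* of 0.08 ± 0.06. *Agrn* was at 127, 151, 152 and 117 TPM in wt and 115, 136, 113 and 108 TPM in mutants, with overlapping groups (-0.22 ± 0.08, adjusted p = 0.320 by edgeR), and had -0.16 ± 0.10 without both libraries numbered 3. In ratio to *Chrng* of the same library, in which the total of the library cancels out, *Chrna1* was at 0.370, 0.429, 0.396 and 0.416 in wt and 0.624, 0.602, 0.629 and 0.554 in mutants. *Dok7* over *Chrng* ran from 0.185 to 0.227 in wt and from 0.254 to 0.305 in mutants, and *Musk* over *Chrng* from 0.0770 to 0.0851 and from 0.0961 to 0.127. *Rapsn* over *Chrng* ran from 0.617 to 0.680 in wt and from 0.708 to 0.872 in mutants, where replicate 3 enters with a low *Chrng* (149 TPM) and a *Rapsn* level among those of wt. The ratios of *Chrnb1*, *Chrnd*, *Lrp4* and *Agrn* to *Chrng* overlapped between the genotypes. These ratios were chosen after their values were seen and were not tested. How many of all genes would separate in ratio to *Chrng* was not counted.

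**Figure D3:**
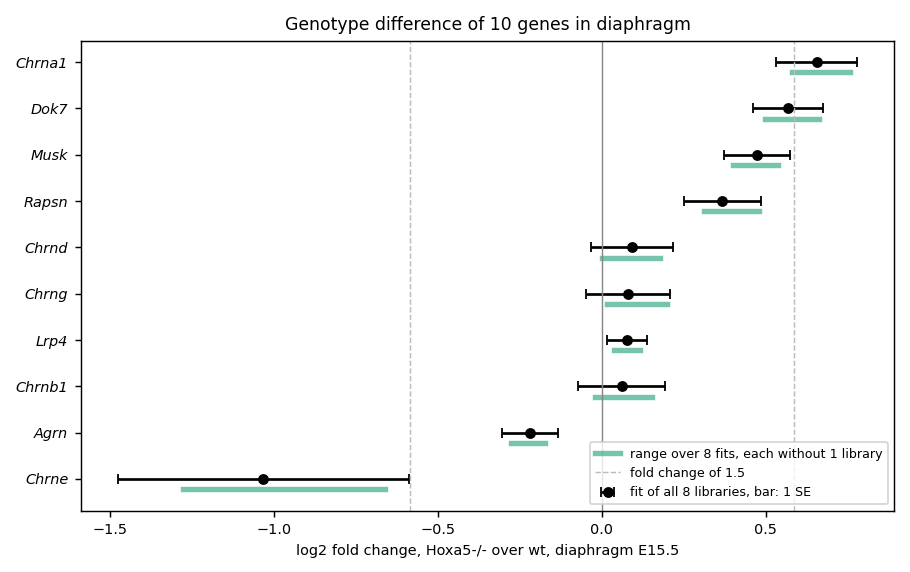
Log2 fold changes of the 10 genes between *Hoxa5*-/- and wt diaphragm by edgeR, with 1 SE (black) and the range over 8 fits that each leave out 1 library (green), and dashed lines at a fold change of 1.5. The lowest of the 8 estimates was 0.58 for *Chrna1*, 0.50 for *Dok7*, 0.40 for *Musk* and 0.31 for *Rapsn*, while *Chrnd*, *Chrng*, *Lrp4* and *Chrnb1* did not exceed 0.20.

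Genes around the synapse were read beside the members in the same diaphragm comparison. Of the 32 scaffold, basal lamina and signalling genes, all were tested, none rose and 1 fell, with a median of -0.06. That gene was *Colq*, at 50.8, 38.6, 32.4 and 52.3 TPM in wt and 19.9, 19, 18.3 and 20.7 TPM in mutants (-1.18 ± 0.17, adjusted p = 0.0235 by edgeR). Its partner *Ache* was at 67.9, 69.4, 64.2 and 73.5 TPM in wt and 44, 48, 57.5 and 45.3 TPM in mutants, without overlap and short of the threshold (-0.51 ± 0.10, adjusted p = 0.0631). *Lamb2*, laminin β2 of the synaptic basal lamina, had -0.37 ± 0.07 (adjusted p = 0.0741), and *Nrg1*, neuregulin, 0.58 ± 0.12 (adjusted p = 0.0842). The most abundant genes of the list had estimates near 0, with -0.25 ± 0.22 for *Cav3*, -0.15 ± 0.10 for *Dag1*, dystroglycan, and 0.05 ± 0.06 for *Crk*, an adaptor of DOK7. Of the neuronal nicotinic subunits 3 of 11 were tested and none passed (median -0.36), with 0.10 ± 0.12 for *Chrna4*, -0.36 ± 0.24 for *Chrna7* and -1.50 ± 0.39 for *Chrnb4*. None of the 7 tested genes of the innervation-sensitive list passed, with a median of 0.06. *Myog*, myogenin and its most abundant gene, had 0.25 ± 0.10, *Ncam1* -0.05 ± 0.12 and *Gadd45a* 0.43 ± 0.23. None of 20 skeletal muscle fibre genes passed (median -0.24), with *Acta1* at -0.52 ± 0.34, *Mylpf* at -0.24 ± 0.25 and *Tnnt3* at -0.48 ± 0.31, nor did any of 9 myogenic regulators (median 0.07). *Myod1*, the most abundant of the latter, had 0.46 ± 0.13 (adjusted p = 0.179), *Myf6* -0.45 ± 0.27 and *Mef2c* -0.01 ± 0.16.

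Some transcripts of nerve cells, Schwann cells and smooth muscle fell in the same libraries. Of 15 motor nerve and neuron genes, 10 were tested and 4 fell, with a median of -1.31, and their sum was 50, 71.2, 35.6 and 50 TPM in wt and 13.6, 19.9, 17.1 and 16.9 TPM in mutants. *Tubb3*, neuronal tubulin and the most abundant of them, was at 11.4, 20.7, 7.54 and 11.2 TPM in wt and 0.975, 1.90, 2.22 and 1.92 TPM in mutants (-2.85 ± 0.35, adjusted p = 0.0124 by edgeR). *Stmn2* fell by 3.20 ± 0.27 on the log2 scale and *Prph*, peripherin, by 2.12 ± 0.29, while *Isl1*, a motor neuron factor also made elsewhere, had -0.43 ± 0.13 and did not pass. The defining motor neuron markers were scarce in all of them, since *Chat* did not exceed 0.336 TPM and *Mnx1* exceeded 1 TPM only in wt replicates 1 and 2. Of 8 Schwann cell genes 3 fell, among them *Sox10* (-1.77 ± 0.20) and *Fabp7* (-2.64 ± 0.27), and the list summed to 89, 108, 70 and 90 TPM in wt and 50.7, 47.5, 48.4 and 47.4 TPM in mutants. Its most abundant gene, *Foxd3*, had -0.23 ± 0.14. Of 5 smooth muscle genes 3 fell, *Actg2* (-4.63 ± 0.56), *Myh11* (-4.34 ± 0.46) and *Cnn1* (-3.30 ± 0.43), while the more abundant *Acta2* (-0.21 ± 0.14) and *Smtn* (-0.37 ± 0.15) did not pass. The smooth muscle list summed to 2000, 2211, 1358 and 1591 TPM in wt and 1417, 1452, 1036 and 1253 TPM in mutants. Neither the hepatocyte, cartilage, airway, mesothelium, heart muscle, brown fat nor blood and endothelium list held a gene that passed, with the most abundant gene of each at 0.69 ± 0.95 (*Alb*), -0.21 ± 0.46 (*Sox9*), -4.59 ± 1.88 (*Sftpc*), -0.32 ± 0.17 (*Upk3b*), -0.76 ± 0.21 (*Myl3*), -0.27 ± 0.17 (*Fabp4*) and 0.17 ± 0.59 (*Hba-a1*). The part that nerve, smooth muscle and other tissues in the samples had in the levels of the members was not tested.

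**Figure D4:**
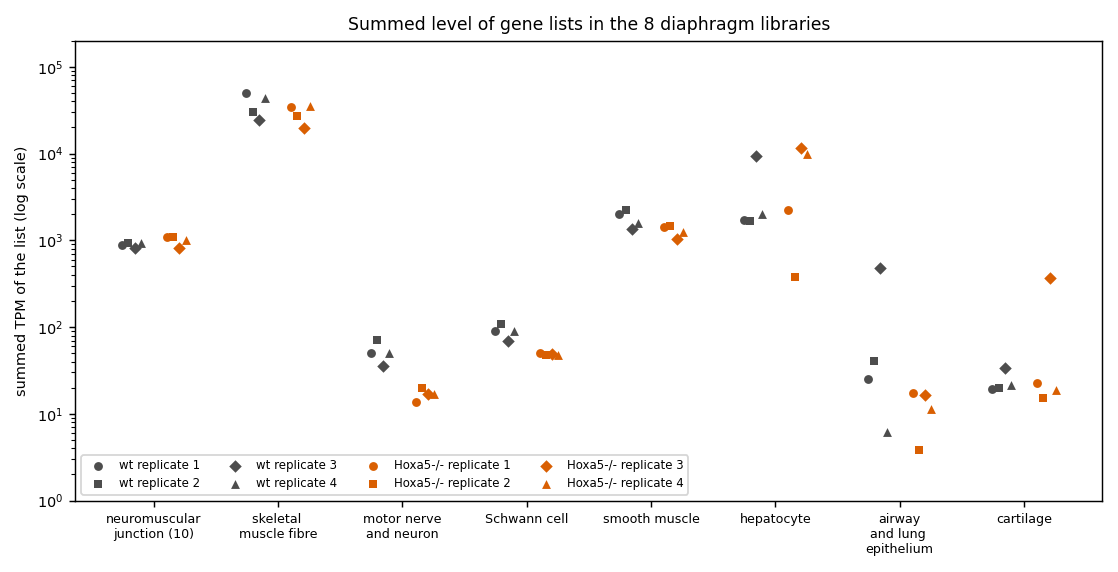
Summed TPM on a log scale of the 10 members and of 7 lists of tissue genes in the 8 diaphragm libraries, wt in grey and *Hoxa5*-/- in orange, with a symbol for each replicate number. The nerve and Schwann cell sums of the mutants lay below all wt sums, and the liver, lung and cartilage sums were high in single libraries, such as 481 TPM of lung genes in wt replicate 3 and 366 TPM of cartilage genes in *Hoxa5*-/- replicate 3.

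The fetal and the adult receptor subunit were compared within each library, where TPM allows levels of different genes to be set side by side. *Chrng* exceeded *Chrne* 142-fold in mean TPM in wt diaphragm and 305-fold in *Hoxa5*-/- diaphragm. Its share of the pair was 99.3%, 99.4%, 99.6% and 98.9% in wt replicates 1 to 4 and 99.6%, 99.8%, 99.8% and 99.6% in mutants. The fetal subunit thus gave nearly all of the transcripts of the pair in all 8 libraries. *Chrne* itself was at 1.28, 1.15, 0.669 and 2.11 TPM in wt and 0.898, 0.401, 0.369 and 0.915 TPM in mutants, from 14, 16, 9 and 36 reads and 15, 9, 6 and 19 reads. Its groups overlapped through wt replicate 3, and edgeR gave a log2 fold change of -1.03 ± 0.44 (adjusted p = 0.370). *Chrne* reached the expression minimum through the wt mean alone, which fixed the direction of this estimate. The log2 ratio of *Chrng* to *Chrne* was 7.14 ± 0.51 (SD, n = 4) in wt and 8.12 ± 0.47 in *Hoxa5*-/- diaphragm, a difference of 0.99 with p = 0.0571 in a two-sided exact permutation test, whose smallest possible p is 0.0286. Adjusted over the 3 contexts tested, 2 of which are the somites with few *Chrne* reads, p was 0.171. With each library left out in turn, the difference ran from 0.77 without wt replicate 4 (two-sided exact permutation p = 0.143) to 1.18 without wt replicate 3 (two-sided exact permutation p = 0.0286), before any adjustment over contexts.

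In somites, *Chrne* was represented by at most 3 reads per library at E10.5 and 5 at E12.5, so that its level could not be resolved at this depth. *Chrng* made up between 95.2% and 100% of the pair at E10.5 and between 98.9% and 100% at E12.5. The log2 ratio of mutants minus wt was 0.02 at E10.5 (exact permutation p = 1) and -0.04 at E12.5 (exact permutation p = 0.943), values that the pseudocount largely sets and that cannot show whether the genotypes differ. In wt trachea, which holds little skeletal muscle, *Chrne* at 0.414 ± 0.178 TPM (n = 4) and *Chrng* at 0.306 ± 0.399 TPM were both near the limit of detection. Both lung stages held 13 reads of the pair or fewer in each library, and no share is given for them.

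**Figure D5:**
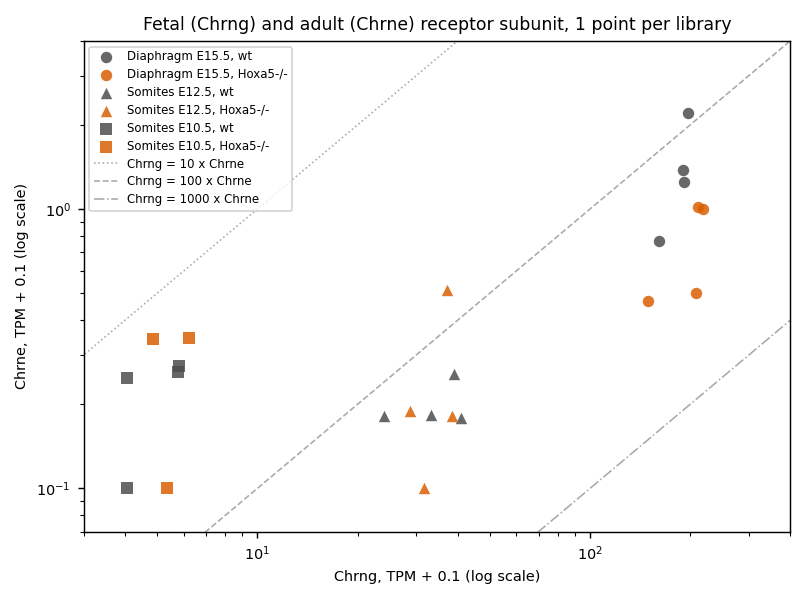
*Chrne* against *Chrng*, both in TPM plus 0.1 on log scales, with 1 point per library of diaphragm and somites and lines of equal ratio. Diaphragm libraries lay far to the right, with the 4 mutant libraries at lower *Chrne* than 3 of the 4 wt libraries.

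Outside the diaphragm, too, no member passed edgeR's test between genotypes. This covered 4 members tested in lung at E12.5 (0.0798% of genes passed, 1406 genes with an unadjusted p under 0.05), 5 in lung at E15.5 (0.124%, 1123 genes), 9 in trachea (0.0156%, 1288 genes), 7 in somites at E10.5 (0.0215%, 2360 genes), 9 in somites at E12.5 (0.00529%, 613 genes) and 3 in iBAT (0.00657%, 376 genes). DESeq2 called no member in these 6 contexts either. In somites at E12.5, estimates ran from -0.10 for *Agrn* to 0.15 for *Chrna1*, which was at 32.9, 33.3, 32.3 and 31.2 TPM in mutants beside the wt values above. In iBAT, *Dok7* was under the expression minimum and was not tested. It was at 0.349 to 0.597 TPM in wt (12 to 21 reads) and 0.118 to 0.308 TPM in mutants (4 to 12 reads). The share of all genes whose ranges separate in iBAT was not counted.

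In trachea the mutant values came from 1 library. *Chrng* was at 0.114, 0.0918, 25.8 and 0.138 TPM in *Hoxa5*-/- replicates 1 to 4, *Chrna1* at 0.288, 0.406, 13.6 and 0.359 TPM, and *Rapsn* at 2.46, 2.05, 21.9 and 1.75 TPM. Replicate 3 was the library with the skeletal muscle transcripts described above. With it, the 9 tested members had positive estimates and a median log2 fold change of 0.59. Of these, *Chrna1*, *Chrnd*, *Chrng* and *Musk* reached the expression minimum only through replicate 3, which fixed the direction of their estimates. Without replicate 3, 5 members reached the minimum, and *Rapsn* had -1.17 ± 0.28 (adjusted p = 0.257 by edgeR) and *Dok7* -0.56 ± 0.19 (adjusted p = 0.289). The wt trachea libraries held *Rapsn* at 4.16, 6.62, 3.48 and 4.47 TPM, above the 3 other mutant libraries. The share of all genes separating in this way was not counted. In those mutants the skeletal muscle fibre list summed to 391, 411 and 235 TPM, against 441 to 1808 TPM in wt. The myogenic regulators summed to 58.4, 54.5 and 54.2 TPM, against 62.0 to 83.1 TPM in wt. The part of muscle content in these levels was not tested.

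Whether the genotype effect differed between contexts was tested as an interaction, called at an adjusted p under 0.05 alone. No member passed for diaphragm against trachea (10 tested, 0.439% of genes passed), diaphragm against lung at E15.5 (10 tested, 0.73%), lung at E15.5 against E12.5 (5 tested, 0.0267%) or somites at E12.5 against E10.5 (9 tested, 0.0147%). Without *Hoxa5*-/- trachea replicate 3, the effect in diaphragm minus that in trachea was 1.57 ± 0.28 for *Rapsn* (adjusted p = 0.0182 by edgeR) and 1.15 ± 0.21 for *Dok7* (adjusted p = 0.0211), in a fit that called 0.85% of genes, while with it *Rapsn* had -0.24. In the remaining mutant trachea libraries the skeletal muscle fibre list summed to 235 to 411 TPM, against 441 to 1808 TPM in wt trachea. The heart muscle list summed to 1527 to 3007 TPM, against 3120 to 5475 TPM in wt trachea. The part of muscle content in these 2 calls was not tested.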

How the data were processed

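Raw counts per gene were deposited by the authors, who used Trim Galore 0.6.5 for trimming, STAR 2.7.9a for alignment (GRCm39) and featureCounts 2.0.3 for counting, and TPM values that the authors derived from these counts and exon lengths were deposited beside them. The strand setting of the counting is not given in the sources used here. Counts and TPM were read for all 57 libraries, 2573 gene names that the 2 tables separate differently were matched, and no libraries were identical. The members and gene lists were chosen with earlier results of these data known.

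Groups were compared on the counts with edgeR 4.0.16 (quasi-likelihood test, TMM, Benjamini-Hochberg adjustment over all genes tested) in R 4.3.3, with genes under a mean of 1 TPM in both groups left out. The alternatives were DESeq2 1.42.0, edgeR with the size factors of DESeq2, a minimum of 10 counts per gene over the libraries, no minimum fold change, a replicate block, scaling to the skeletal muscle list, a single fit of all libraries of a table, and each library left out. Leaving out the diaphragm libraries with foreign tissue was added after seeing the data. Ratios of *Chrng* to *Chrne* took a pseudocount of 0.1 TPM and exact permutation. The fits were tested on simulated data. Named genes were the members, *Hoxa5* and those of each list that passed in the context described. Also named were the most abundant of each list in wt diaphragm (up to 3), and the 3 most correlated with *Chrna1*, *Chrng*, *Chrne* and *Agrn*. Others were named after their values were seen. Whether libraries of a group came from separate litters is not stated (in iBAT, names share leading numbers across genotypes), and p-values measure the spread between libraries. Some genes of the lists are not reported here by name.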

Additional observations from a re-analysis of the deposited data

Results flagged for a closer look

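Of 81 groups of 4 or 5 libraries in which a member had a mean of at least 1 TPM, 12 held a library that stood apart from the rest by Dixon's criterion (chance alone meets it in about 1 of 20 groups). For *Chrna1*, *Chrnd*, *Chrng* and *Musk* in *Hoxa5*-/- trachea the mean reached 1 TPM only through that library, so these 4 groups are not comparable with that share. Of these, 6 rest on *Hoxa5*-/- trachea replicate 3, which was highest for *Chrna1* (13.6 TPM, others up to 0.406), *Chrnb1* (54.8 TPM, others up to 26.8), *Chrnd* (23 TPM, others up to 0.192), *Chrng* (25.8 TPM, others up to 0.138), *Musk* (3.33 TPM, others up to 0.753) and *Rapsn* (21.9 TPM, others up to 2.46). The same library held the skeletal muscle and cartilage transcripts given in the report.

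In wt trachea, replicate 2 was lowest for *Chrnb1* (19.9 TPM, others from 23.9). In lung at E15.5, wt replicate 3 was highest for *Dok7* (3.60 TPM, others up to 2.48) and *Lrp4* (63.0 TPM, others up to 43.1), and *Hoxa5*-/- replicate 4 was lowest for *Agrn* (180 TPM, others from 308). This mutant library also had the lowest summed TPM of the members among lung libraries at E15.5 (227 TPM). The authors list smaller shares of its reads as mapped to the genome and assigned to genes than for the other lungs of that stage. In lung at E12.5, wt replicate 2 was lowest for *Lrp4* (25.9 TPM, others from 28.7). In diaphragm, *Hoxa5*-/- replicate 3, the library with cartilage and much liver RNA, was lowest for *Chrng* (149 TPM, others from 208).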

How the results depend on the processing

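In diaphragm no member passed as reported, but *Chrna1* alone passed with DESeq2 (1) and with the replicate block (1, with 1.99% of genes called), and *Chrna1* and *Dok7* passed with a minimum of 10 counts (2), without both libraries numbered 3 (2) and without the 3 libraries with *Alb* above 4000 TPM (2, with 0.572% called). Leaving out each library in turn gave 0 to 2. A single edgeR fit of all respiratory libraries put *Chrna1* farther from the threshold (0.67 ± 0.53, adjusted p = 0.666). So did scaling to the skeletal muscle list (0.83 ± 0.23, adjusted p = 0.359), which moved the median of all genes to 0.19. Between wt trachea and lung, 3 members passed as reported and 6 with a minimum of 10 counts, where 27.4% of genes passed. For diaphragm against trachea, interactions gave 0 to 2 members when libraries were left out, and *Rapsn* turned from -0.24 to 1.57 without *Hoxa5*-/- trachea replicate 3. For diaphragm against lung, 1 member, *Dok7*, passed with the replicate block, with 2.25% of genes. The *Chrng* to *Chrne* difference in diaphragm was 0.55 with a pseudocount of 1 TPM (exact permutation p = 0.0286, not adjusted over contexts), had p = 0.125 with the replicate block, the smallest that 4 pairs can give, and ran from 0.77 to 1.18 with 1 library left out. In somites it changed sign around 0, at E10.5 with the replicate block (-0.031) and from -0.56 to 0.40 with 1 library left out, and at E12.5 on raw counts (0.041) and from -0.35 to 0.36. No other count of members moved by more than 1.5 times under any alternative. Among recomputed log2 fold changes of single members, 650 between genotypes and 588 of differences between contexts kept direction and call, 62 and 46 changed sign short of the threshold, and 10 and 3 gained a call, among the latter that of *Rapsn* given above, which also changed sign. Between wt contexts 583 kept both, 1 changed sign short of the threshold (*Lrp4*, diaphragm against lung) and 1 lost its call (*Lrp4* between lung stages).

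Only in iBAT did every same-numbered pair correlate above 0, and in no context did every one exceed 0.1. In diaphragm, where the replicate block called *Chrna1*, the correlations were 0.20, 0.29, 0.45 and -0.04 for replicates 1 to 4. In iBAT, names of same-numbered wt and mutant libraries begin with the same number, which the last 2 of each genotype share, and correlations were 0.14, 0.15, 0.19, 0.14 and 0.07. What that number stands for is not stated. A block of it called 0 members in iBAT, as did the replicate block. Few reads limit *Chrne* everywhere, and *Chrnd*, *Chrng*, *Chrna1* and *Musk* in lung. With 4 libraries a group, calls at folds near 1.5 changed with the setting in diaphragm. How often the test would call such folds is not given here.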
